A study of Homo sapiens and Mus musculus with 6 samples.

Results

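The Pax genes examined here are Pax1, Pax2, Pax3, Pax6, Pax7, Pax8 and Pax9, 7 of the 17014 genes named in the promoter interactions called in mouse embryonic stem cells (mESCs). Every call in which 1 of these symbols was listed for the bait or for the other end was kept. This gave 240 of 101841 calls, 182 of them with a Pax promoter as the bait. Pax4 and Pax5, the remaining genes of the family, had 3 calls and 1 call and were not included among the 7.

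Promoter Capture Hi-C (Promoter CHi-C) ligates chromatin fragments that lie close together in fixed nuclei, and then pulls down the HindIII restriction fragments that carry promoters, the baits. The mESCs were J1 cells of the 129S4/SvJae strain, grown on embryonic fibroblast feeders in serum without further treatment and separated from the feeders by passaging; 2 biological replicates were captured, and 1 Hi-C library was made without capture. The comparison cell type was GM12878, a human lymphoblastoid cell line derived from B cells, with 3 biological replicates. The replicates of each cell type were merged by the authors before interactions were called with CHiCAGO, so each cell type has a single list of calls, no spread between replicates can be given and no test was possible. Both cell types are single lines, RNA was not measured, and the labelled identity could not be checked against marker genes.

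Pax genes encode transcription factors that bind DNA through a paired domain, several of them also through a homeodomain. They act in the early patterning of organs: Pax1 and Pax9 in the vertebral column and the pharyngeal pouches, Pax2 and Pax8 in kidney, Pax2 also in the midbrain and Pax8 in the thyroid, Pax3 and Pax7 in neural crest and skeletal muscle, and Pax6 in eye and pancreas. Pax5 is the B cell member and Pax4 acts in pancreatic islets. Promoters of such genes are commonly held silent in pluripotent cells by Polycomb proteins, which mark the chromatin of CpG-rich DNA.

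Each of the 7 genes was represented by 1 bait fragment in mm9. The shortest, for Pax3, had 798 bp (chr1:78192936-78193733), and the longest, for Pax2, had 10991 bp (chr19:44822979-44833969). The others were chr2:147183919-147187681 for Pax1, chr2:105507172-105509343 for Pax6, chr4:139385941-139390878 for Pax7, chr2:24324999-24333158 for Pax8 and chr12:57792706-57796357 for Pax9. All 7 carried an annotated protein-coding transcript start of their gene. The start used for Pax3 lay 24 bases inside the fragment end, that of Pax9 48 bases inside it, and for Pax1 the bait held the start of only 1 transcript, while the start of 2 other coding transcripts lay on the neighbouring bait listed as AI646519.

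The 200 bases upstream of the start are shown for Pax3 and Pax9, whose calls had the 2 highest scores, for the main partner of each (Fev and Nkx2-1), and for Pax8, which had the fewest calls. Sequences are from mm9, read 5′ to 3′ towards the start, with CpG dinucleotides in capitals. The windows are chr1:78193710-78193909 (minus strand), chr1:74931994-74932193 (minus strand), chr12:57792554-57792753 (plus strand), chr12:57637896-57638095 (minus strand) and chr2:24331120-24331319 (minus strand).
Pax3: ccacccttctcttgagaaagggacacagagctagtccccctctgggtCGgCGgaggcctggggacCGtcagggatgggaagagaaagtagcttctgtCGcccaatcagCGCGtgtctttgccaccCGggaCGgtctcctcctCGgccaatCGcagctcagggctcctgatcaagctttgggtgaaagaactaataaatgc
Fev: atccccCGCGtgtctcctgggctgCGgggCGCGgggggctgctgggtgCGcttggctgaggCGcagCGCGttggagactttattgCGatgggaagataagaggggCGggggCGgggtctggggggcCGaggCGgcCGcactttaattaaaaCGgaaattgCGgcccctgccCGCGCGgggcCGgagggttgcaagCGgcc
Pax9: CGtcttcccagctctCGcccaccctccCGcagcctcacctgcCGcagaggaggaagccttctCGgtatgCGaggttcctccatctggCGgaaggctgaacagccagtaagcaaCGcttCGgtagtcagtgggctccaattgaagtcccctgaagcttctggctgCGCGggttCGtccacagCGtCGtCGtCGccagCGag
Nkx2-1: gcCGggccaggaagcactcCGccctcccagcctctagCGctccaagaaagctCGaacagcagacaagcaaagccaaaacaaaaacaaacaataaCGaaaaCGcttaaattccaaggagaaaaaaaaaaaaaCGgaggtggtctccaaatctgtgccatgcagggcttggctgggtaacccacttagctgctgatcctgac
Pax8: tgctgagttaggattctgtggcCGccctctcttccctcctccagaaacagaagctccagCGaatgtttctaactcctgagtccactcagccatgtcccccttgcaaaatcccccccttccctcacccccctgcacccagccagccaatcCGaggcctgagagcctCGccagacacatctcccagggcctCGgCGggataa

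These windows held 10 CpGs for Pax3, 22 for Fev, 17 for Pax9, 7 for Nkx2-1 and 6 for Pax8, beside a median of 9.0 in 13244 windows of this length upstream of coding starts on mESC baits. Over the 7 members the count ran from 6 at Pax8 to 17 at Pax9, and 36.7% to 74.9% of all windows held fewer. Immediately upstream of the start the Pax promoters were therefore not apart from other baited promoters. Over whole fragments the observed-to-expected CpG ratio had a median of 0.489 for the 7 Pax baits, 0.499 for 245 baits of other developmental transcription factors and 0.3 for all 16265 baits with a call. The Pax3 bait had the highest value, 0.673, with 94.4% of baits below it, and the Pax1 bait the lowest, 0.314.

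The number of calls differed widely within the family. Pax2 had 62 calls, Pax3 56, Pax9 48, Pax1 31, Pax6 25, Pax7 16 and Pax8 2. Counted from their own bait only, these were 45, 43, 40, 23, 19, 10 and 2 calls. The median was 3.0 calls over all 16265 baits with a call. It was 11.0 over the 245 baits of other developmental transcription factors with a call. Captured baits without any call are not counted here or below. Of the baits with a call, 99.2% had fewer calls than Pax2, 99.1% fewer than Pax3 and 98.9% fewer than Pax9, but 23.4% fewer than Pax8. Of the paralogues, Pax2 and Pax8 stood at the opposite ends of the range, Pax3 had more than 3 times as many calls as Pax7, and Pax1 and Pax9 both had many, with fewer calls at 95.6% and 98.9% of baits.

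**Figure D1:**
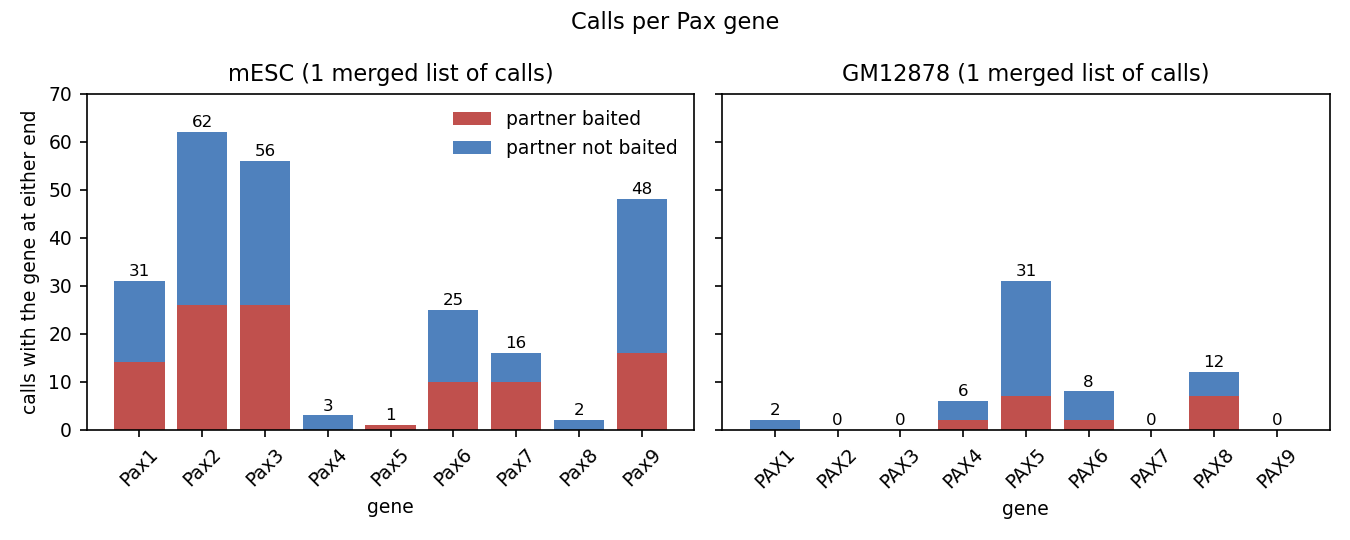
Number of calls (y axis) with each Pax gene at either end in mESCs (left) and GM12878 (right), divided by whether the partner fragment was itself a bait. Pax2, Pax3 and Pax9 lead in mESCs with 62, 56 and 48 calls, whereas PAX5 leads in GM12878 with 31.

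**Figure D2:**
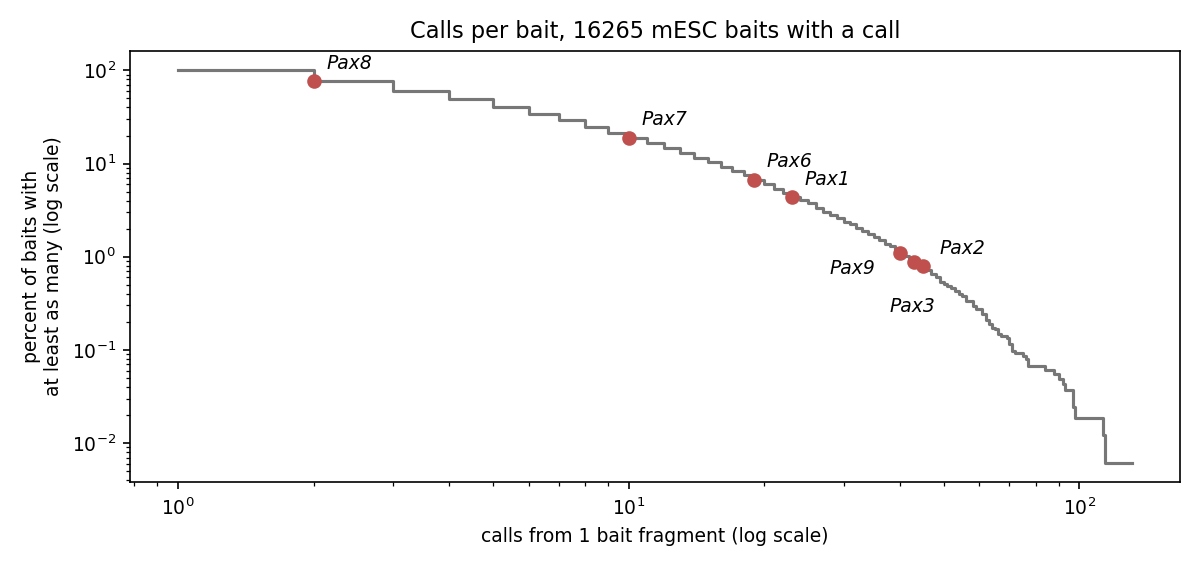
Share of the 16265 mESC baits with a call (y axis, percent, log scale) that had at least a given number of calls (x axis, log scale), with the 7 Pax baits as points. Pax2, Pax3 and Pax9, with 45, 43 and 40 calls, lie in the sparse tail, and Pax8, with 2 calls, lies at the top of the curve.

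The calls were longer than usual. The median distance between fragment midpoints was 476 kb over 237 cis-chromosomal Pax calls, 431 kb for those from a Pax bait, 200 kb for the baits of other developmental transcription factors and 139 kb over all calls. From Pax baits, 45 of 182 calls were in cis and over 1 Mb, that is 24.7% (exact 95% interval 18.6 to 31.7, for counting error only, as for all intervals here), beside 21.8% (20.5 to 23.1) for the other developmental factors and 3.37% of all mESC calls. With calls to a Pax promoter from other baits included, 67 of 240 calls (27.9%) spanned over 1 Mb. Pax3 supplied 34 of these 67, and without it the share was 17.9% of 184 calls with a Pax gene at either end. The Pax3 bait also made most of the 45 calls from Pax baits. Calls under 100 kb made up 13.2% (8.64 to 19) of calls from Pax baits and 34.7% (33.3 to 36.2) of those from the other factors.

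**Figure D3:**
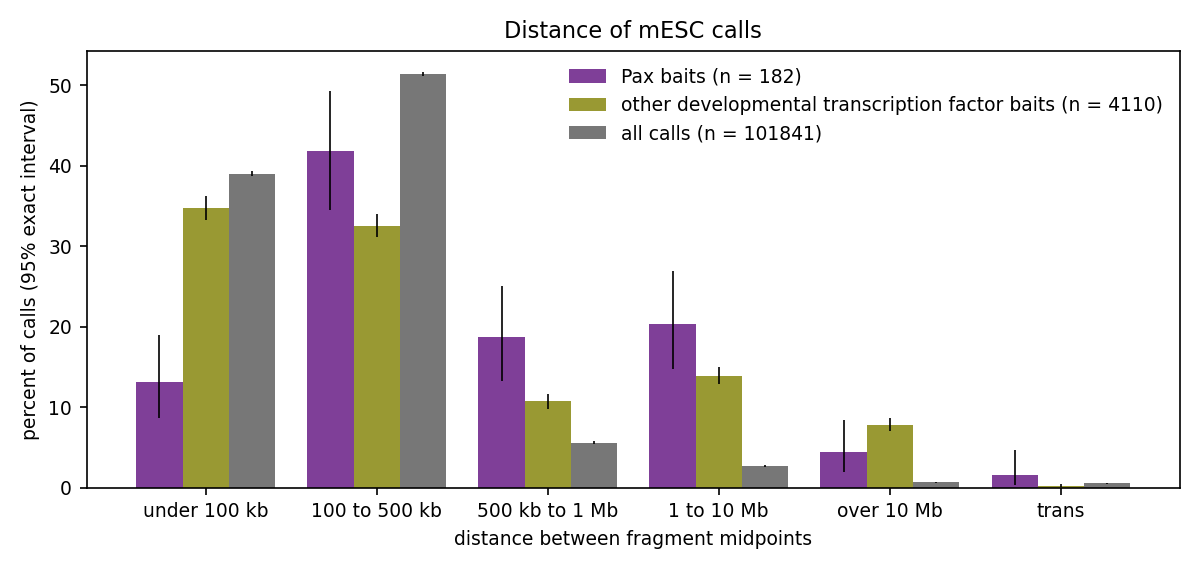
Share of calls (y axis, percent) in 6 classes of distance for the 7 Pax baits, 245 baits of other developmental transcription factors and all mESC calls; lines are exact 95% intervals. The Pax baits have the smallest bar under 100 kb (13.2%) and the tallest from 1 to 10 Mb (20.3%). Most Pax calls from 1 to 10 Mb came from the Pax3 bait.

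In 102 of the 240 calls the partner fragment was itself a bait, a share of 42.5% (36.2 to 49.0). This share includes calls made from the partner's side, where the partner is a bait by definition. From Pax baits alone it was 44 of 182, or 24.2% (18.1 to 31.1), below the 36.3% of all mESC calls and near the 28.4% (27 to 29.8) of other developmental factors. The partner carried the promoter of a listed developmental transcription factor in 27 of 240 calls, and in 13 of 182 calls from Pax baits (7.14%, 3.86 to 11.9). For all mESC calls this share was 1.46%, and for the other factors it was 11.3% (10.3 to 12.3). The calls reached 56 named genes, of which 14 were on the list of developmental transcription factors and 4 on the list of signalling ligands. Of the 12 retinal determination genes (genes such as Six3 and Eya1, which act with Pax6 in the eye), 8 had calls and 0 shared a call with a Pax promoter, in a list where 56 of 17014 named genes did. No call joined 2 of the 7 Pax promoters, in any of 21 pairs, 3 of which lie on the same chromosome at distances of 41.7, 81.2 and 123.0 Mb. Calls in trans made up 0.569% of all mESC calls and cis calls over 10 Mb 0.681%. With calls this rare, the absence of a call among 21 such pairs is not a result about Pax genes.

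Of 197 partner fragments, 59 were baits and 138 were not. Partner fragments with gaps of at most 25 kb were joined into runs. This gave 65 runs, of which 35 held 2 or more fragments, and 104 of the 138 unbaited fragments lay in a run that also held a baited partner. Of the 65 runs, 45 held a baited partner and 20 did not. Among the unbaited fragments 65 were intergenic, 29 lay in introns, 28 overlapped an exon, and 16 held an annotated transcript start. Their median observed-to-expected CpG ratio was 0.278, beside 0.202 over 35483 unbaited fragments in all mESC calls.

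**Figure D4:**
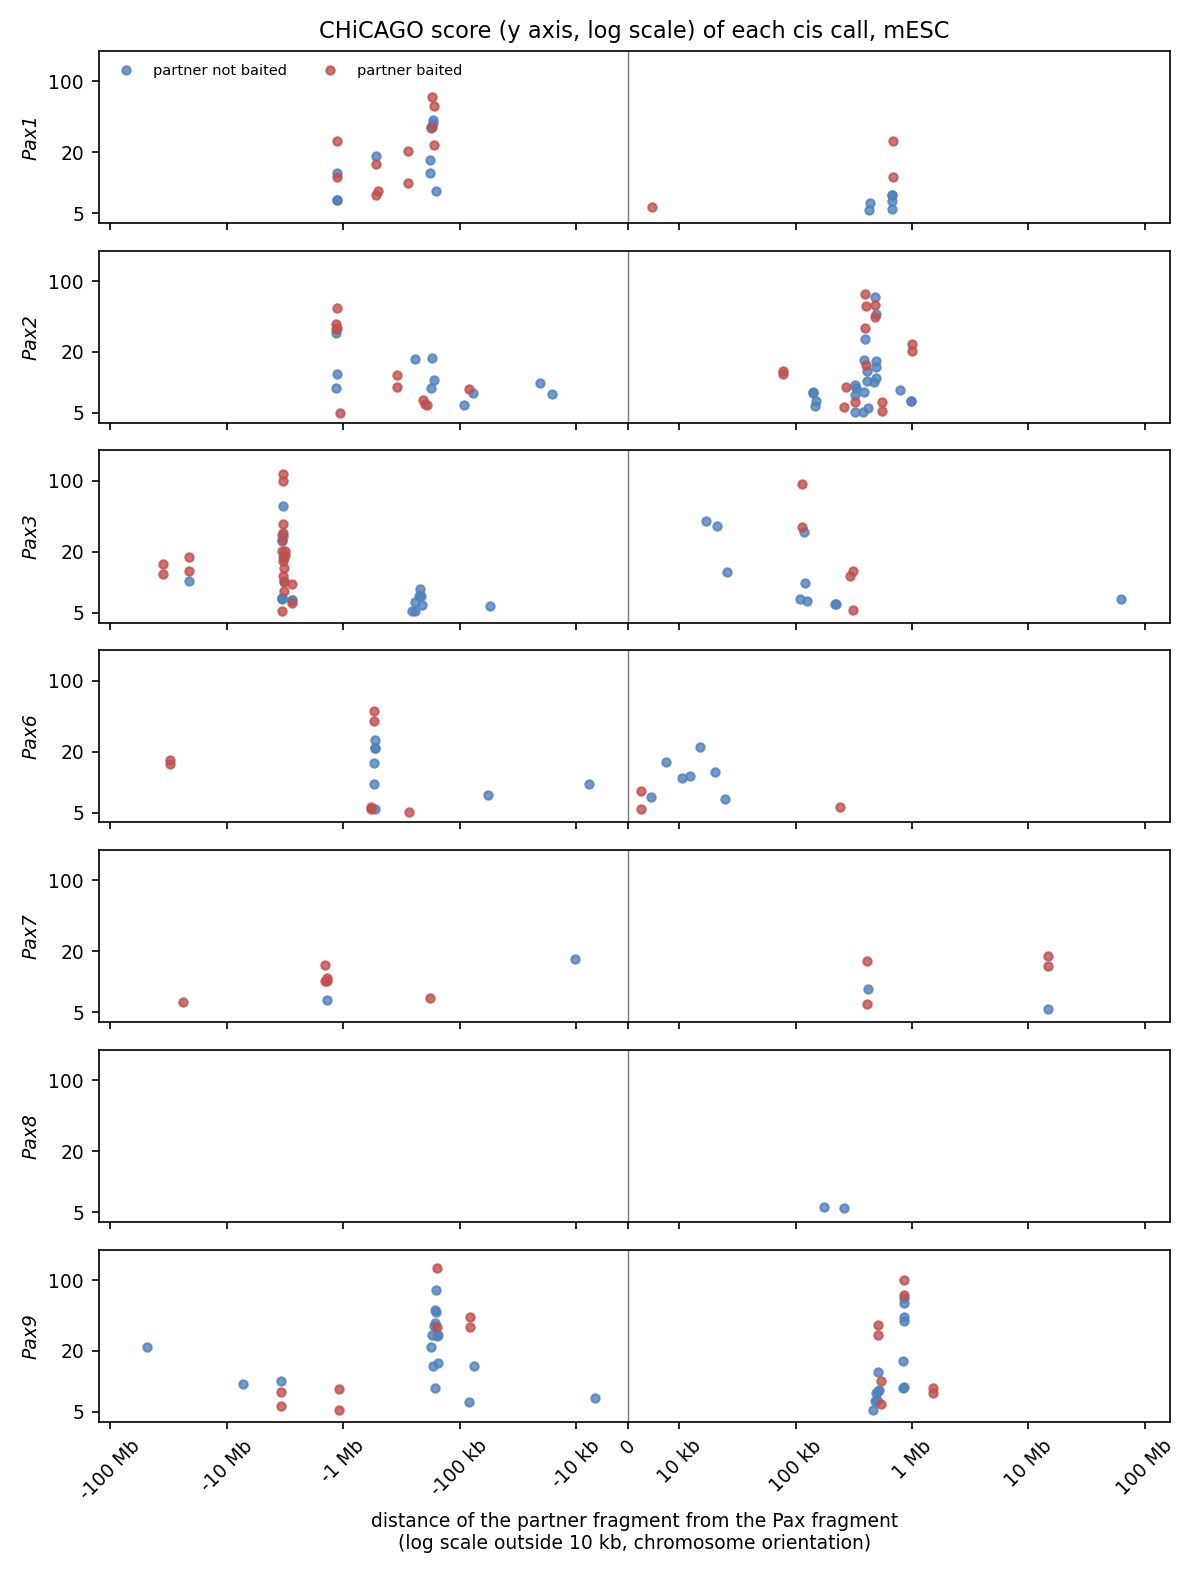
CHiCAGO score (y axis, log scale) of every cis-chromosomal mESC call against the distance of the partner from the Pax fragment along the chromosome (x axis, log scale beyond 10 kb), by gene. Calls gather in narrow columns, such as those of Pax3 near Fev at 3.26 Mb and of Pax9 near Nkx2-1 and Foxa1 on either side.

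Pax1 contacted the promoters of the neighbouring forkhead and Nkx genes on chromosome 2. Its highest score, 69.59 with 88 reads, was to the bait listed as 6430503K07Rik, 171 kb away, which lies within the antisense transcript of Nkx2-2. The next bait, named for Nkx2-2, a homeobox gene of the ventral neural tube, had 65 reads and scores of 56.85 and 23.49 from its own and the Pax1 side. Both belonged to a run of 9 adjacent or near-adjacent fragments over 22.9 kb with 25 to 88 reads. Nkx2-4 followed at 275 kb with 28 reads, and Foxa2, a forkhead gene of floor plate and endoderm, lay on the other side at 687 kb with 19 reads. Insm1, a zinc finger gene of neuroendocrine cells, was reached at 1.14 Mb with 15 reads, and the longest Pax1 call, with 9 reads and a score of 6.68, went to an unbaited fragment of the same run. Gm14114 and Plk1s1, some 500 kb away, had 17 and 12 reads. The neighbouring bait AI646519 was called with Pax1 at 4.78 kb with 155 reads and a score of 5.72; the score weighs the reads against those expected at the distance. Of 6 possible pairs among the 4 transcription factor partners, 5 were themselves called, all but that of Insm1 with Foxa2.

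Pax9, the paralogue of Pax1, had partners of the same gene families. Its call with Nkx2-1, a homeobox gene of thyroid, lung and forebrain, had 129 reads at 157 kb and the highest score of any Pax call, 131.19 from the Nkx2-1 bait and 34.39 from the Pax9 bait. Nkx2-9 at 81 kb had 84 reads and scores of 34.09 and 43.03. On the other side, Foxa1 at 850 kb had 47 reads and scores of 99.54 and 71.12. The Nkx2-1 run held 13 fragments over 27.5 kb with 15 to 129 reads, and the Foxa1 run held 8 fragments. Between Pax9 and Foxa1, Slc25a21, which encodes a mitochondrial carrier, had 35 reads at 505 kb, and Prps1l3 had 9 at 537 kb. Longer calls with 6 to 8 reads went to Sstr1, a somatostatin receptor gene, at 1.52 Mb, Insm2 at 1.09 Mb and Npas3 at 3.45 Mb. Pax1 and Pax9 thus each contacted an Nkx2 gene pair, a Foxa gene and an Insm gene within their own chromosome.

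Pax2 had the most calls, spread over both sides. Tlx1, a homeobox gene needed for the spleen, lay at 394 kb with 80 reads and scores of 74.68 and 34.28. The adjoining bait Gm20424 had 25 and 20 reads from the 2 sides. A bait named only uce, at 476 kb with 56 reads, also carries the annotated start of Lbx1, a homeobox gene of migrating muscle precursors, and the unbaited fragment beside it had 59 reads and a score of 69.31. Fgf8, the growth factor of the midbrain-hindbrain boundary, was reached at 988 kb with 26 reads and scores of 23.69 and 20.63. At the other end of the region Nkx2-3, a homeobox gene of gut and spleen, lay at 1.14 Mb with 30 reads and scores of 53.86 and 34.82, and the adjoining Gm20467 had 34 reads. The longest cis call, at 1.16 Mb with 9 reads, was to an unbaited fragment of this same run.

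Several other Pax2 partners carry genes with general cellular functions. Scd1, which encodes a fatty acid desaturase, had 21 reads at 346 kb. Hif1an, Ndufb8, a subunit gene of respiratory complex I, and Sec31b, a vesicle coat gene, had 16, 11 and 7 reads at 189, 198 and 207 kb. Lzts2, AC132957.1, Kazald1 and Entpd7 had 3 to 12 reads and scores up to 9.09, all of them called from the partner's bait only. 1700039E22Rik, at 77.7 kb, had 65 reads and was called from both sides. These calls had lower scores than those to the homeobox genes and Fgf8, the highest being 12.94 for 1700039E22Rik.

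Pax3 was distinguished by contacts beyond 1 Mb, which made up 34 of its 56 calls. The highest score, 116.61 with 37 reads, was to Fev at 3.26 Mb, and the same pair scored 99.97 from the Fev bait. Fev encodes an ETS factor of serotonergic neurons. The fragments around it formed a run of 8 over 52.4 kb that also held the promoters of Cryba2, a lens crystallin gene, with 14 reads, Mir375, a microRNA gene of pancreatic islets, with 8, Cdk5r2 with 6 and Gm15841 with 5. Nearby, Wnt6 had 11 reads, Wnt10a 4, the hedgehog ligand gene Ihh 9 and the ion channel gene Accn4 6. Most of these pairs were called from both baits, and 12 of the 14 baited Pax3 partners had a call in each direction. Pou3f3, which encodes a POU factor of the developing brain, was also seen from both sides, at 35.4 Mb with 5 reads and scores of 15.15 and 12.19.

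Closer to Pax3, Sgpp2, which encodes a sphingosine phosphate phosphatase, had 92 reads at 113 kb and scores of 92.86 and 34.93. Mogat1 at 313 kb had 13 reads and Farsb at 293 kb had 6. A run of 3 unbaited intergenic fragments, 16.8 to 25.5 kb upstream of Pax3, had 82, 86 and 29 reads and scores up to 40.21. A second run of 7 unbaited fragments, 211 to 255 kb from the Pax3 bait in the direction of transcription, had 6 to 9 reads each and scores up to 8.64. Neither run held an annotated transcript start.

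The named partners of Pax7, the paralogue of Pax3, all lay on its own chromosome 4. Its highest score, 17.95 with 7 reads, was to Prdm16, a zinc finger gene of brown fat and craniofacial development, at 14.6 Mb, and the same pair scored 14.28 from the Pax7 bait. Dmbx1, a homeobox gene of the midbrain, was called at 23.8 Mb with 4 reads and a score of 6.39, from its own bait only. AB041806 at 1.44 Mb had 11 reads, Camk2n1, which encodes an inhibitor of a calcium-dependent kinase, had 12 at 1.38 Mb, and Igsf21 had 14 at 408 kb. Tas1r2, a taste receptor gene, had 10 reads at 180 kb. The nearest fragment called, 10.2 kb away in a Pax7 intron, had 152 reads and a score of 16.71.

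Pax6 calls fell into a local group and a distant group. The local group lay within 25 kb and comprised 9 partner fragments, of which 8 lay on the gene side, with 35 to 254 reads; 7 of these carried alternative Pax6 starts. The antisense transcript gene Pax6os1, listed as a separate bait 2.62 kb away, had 254 reads and scores of 8.1 and 5.46. The distant group was centred on the bait AI314831, which also carries the start of Wt1, a zinc finger gene of kidney and gonad, with 36 reads and scores of 50.76 and 40.27. This run comprised 7 fragments over 15.7 kb, of which 1 was a bait. Gm11060, Rcn1 and Elp4 had 9 or 10 reads and scores up to 5.73. The bait Gm14396, which holds the start of Hoxd9, was called from both sides with 6 reads. Neither Wt1 nor Hoxd9 is named in the list of calls, so Pax6 had 0 calls to a listed factor by name. Annotated starts on the partner fragment were then counted, an alternative chosen after seeing the data. The share over all Pax genes became 46 of 240 calls with a Pax gene at either end (19.2%). Over all calls, read at the other end only, it was 2.07%, so these values are not alike. Starts of the member's own gene were counted too. The 46 therefore include the 7 fragments with alternative Pax6 starts and the Pax1 call to AI646519, which holds a Pax1 start.

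Pax8 had only 2 calls, with 7 and 6 reads and scores of 5.6 and 5.49, at 174 and 259 kb. Both partners were unbaited fragments that overlap exons of Cacna1b, a neuronal calcium channel gene, and both scores lay just above the threshold of 5. Pax4 had 3 calls with 6 or 7 reads, and Pax5 had 1, from the Clta bait, with 3 reads.

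A few calls were in trans or spanned over 10 Mb. There were 13 Pax calls over 10 Mb, or 5.42% of 240. From Pax baits this share was 4.4% (8 of 182, 1.92 to 8.48), beside 7.86% (7.05 to 8.72) for baits of other developmental factors. Over all mESC calls it was 0.681%. The 13 Pax calls had 3 to 7 reads each. Besides calls to Pou3f3, Hoxd9, Dmbx1 and Prdm16, they included a Pax9 call at 48.2 Mb to an unbaited fragment overlapping Osr1, with 6 reads and a score of 21.69, and a Pax3 call at 62.5 Mb to an intron of Lhx9, with 3 reads and a score of 6.89. Osr1 and Lhx9 encode transcription factors that act in the development of kidney and gonad. The nearest coding start was that of a listed developmental factor in 10 of the 13 calls (76.9%, 46.2 to 95), in 57.6% of 323 such calls from other developmental factor baits and in 54.8% of all 694. Prdm16, the nearest gene in the remaining 3, also encodes a transcription factor but is not on the list.

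The trans-chromosomal calls numbered 3, or 1.65% (0.341 to 4.74) of calls from Pax baits. This share was 0.219% (0.1 to 0.415) for baits of other developmental factors and 0.569% over all mESC calls. All 3 Pax calls in trans went to the Hoxb cluster on chromosome 11. The Pax2 call overlapped Hoxb3 and the Pax7 calls overlapped Hoxb9 and Gm11535, the last 14.5 kb from the Hoxb13 start. Each rested on 3 reads, with scores of 5.7, 6.15 and 6.15. In all 579 trans-chromosomal calls, the nearest coding start at the other end was that of a listed factor in 3.63%, and in the 9 from baits of other developmental factors it was in 6.

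For each Pax bait except Pax8, which shared fewer than 2 called fragments with any other bait, the 3 other baits with the most similar sets of called fragments were found, as the number of shared fragments divided by the number in either set. AI646519 was most like Pax1 (0.607, 17 shared), followed by Gm14114 and Nkx2-4 (0.444 each). Nkx2-9 (0.477, 21 shared), Nkx2-1 (0.3) and Slc25a21 (0.294) were most like Pax9. Tlx1 (0.424, 25 shared), Fgf8 (0.347) and a uce bait (0.283) were most like Pax2. For Pax3 these were Wnt10a (0.293), Sgpp2 (0.286) and Wnt6 (0.253), and for Pax6 they were Pax6os1 (0.5), AI314831 (0.323) and Eif3m (0.2). Those most like Pax7 were Megf6 (0.2), Wdr8 (0.167) and Sp6 (0.154), each with only 2 shared fragments. Except for Eif3m, Megf6, Wdr8 and Sp6, each bait named here was itself a called partner. Baits close together along the chromosome share surroundings, and the part of distance in these values was not tested.

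Calls among the baited partners of each Pax gene were counted. For Pax1, 20 of 28 pairs of baited partners had a call of their own, for Pax3 45 of 91, for Pax9 10 of 28 and for Pax2 37 of 136. For Pax6 this was 2 of 15, and for Pax7 1 of 15. No such share was computed for the partners of other baits, so these counts cannot be read as particular to Pax genes. Many of the partners lie near each other, and the part of distance in these counts was not tested.

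The calls were next set against the Hi-C library of the same cell type, which was sequenced before capture and is not an independent sample of these cells. Among the 170 Pax calls that spanned less than 1 Mb, 99 had both ends in 25-kb bins joined by a significant Hi-C interaction (FDR under 0.05), a share of 58.2% (50.4 to 65.7). This share was 11.6% over all mESC calls under 1 Mb and 47.6% (45.9 to 49.4) for the baits of other developmental factors. The like value for those factors, from Pax baits only, was 86 of 134 calls (64.2%, 55.4 to 72.3). Pax9 had 34 of its 39 calls under 1 Mb within such bins, Pax1 18 of 26, Pax2 24 of 53, Pax3 9 of 22, Pax6 13 of 23, Pax7 1 of 5 and Pax8 0 of 2. Without Pax9 the share was 49.6%. The 99 calls lay in 20 bin pairs, since calls to adjacent fragments fall in the same bins.

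The bin pair that holds Pax9 and Nkx2-1 had 133 observed read pairs where 11.0 were expected from distance and coverage, and that of Pax9 and Foxa1 had 45 where 1.62 were expected. For Pax1 and Nkx2-2 the values were 101 and 10.4, for Pax2 and Tlx1 30 and 2.25, for Pax6 and Wt1 63 and 5.18, and for Pax3 and Sgpp2 22 and 4.26. The local Pax6 bins had 124 observed and 74.8 expected read pairs, the lowest ratio of the 20, at 1.66.

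At longer range the Hi-C list has 1-Mb bins. Of 67 cis-chromosomal Pax calls over 1 Mb, 38 lay within a called bin pair, or 56.7% (44 to 68.8), beside 59.4% of all such mESC calls. From Pax baits only it was 27 of 45 (60.0%, 44.3 to 74.3), and from the baits of other developmental factors 49.3% (45.9 to 52.6). Pax3 supplied 28 of the 38 calls with a Pax gene at either end. Without it the share was 10 of 33 (30.3%, 15.6 to 48.7), an alternative chosen after seeing the data. The bin pair with Pax3, Fev and the Wnt genes had 571 observed and 357 expected read pairs. Those with Prdm16, Hoxd9 and the Osr1 fragment had 340 and 121, 182 and 115, and 215 and 73.1. None of the Pou3f3, Dmbx1 and Lhx9 calls lay within a called pair of bins. All 3 trans-chromosomal calls did, beside 44% of all trans-chromosomal mESC calls, with 69 observed and 23.1 expected for Pax2 and 83 and 20.8 for Pax7.

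**Figure D5:**
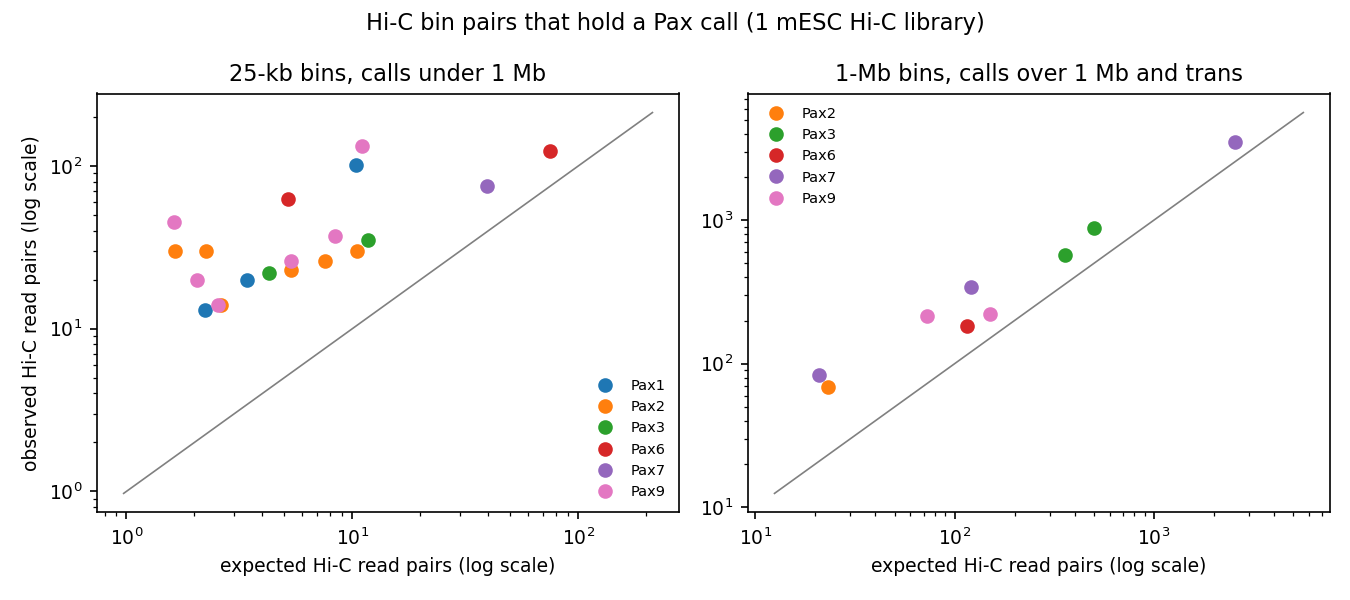
Observed (y axis) against expected (x axis) Hi-C read pairs, both on log scales, for the bin pairs that hold a Pax call, in 25-kb bins (left) and 1-Mb bins (right); the line marks equality. All 20 and 9 bin pairs lie above the line, with ratios from 1.66 to 27.8 and from 1.37 to 3.99, as pairs listed as significant must.

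In GM12878 the same symbols had far fewer calls, and only 3 of the 7 had any. Fewer calls were also seen over the list of 310 developmental factors, which holds the Pax genes. Of these, 257 had a call in mESCs and 209 in GM12878, with medians of 11.0 and 2.0 calls per gene. A lower number in GM12878 is thus not particular to Pax genes. PAX8 had 12 calls, PAX6 8 and PAX1 2, in all 22 of 92929 calls. No call was listed for PAX2, PAX3, PAX7 or PAX9, 3 of which had the most calls in mESCs; whether these promoters were captured is not known from the lists. PAX5, which specifies B cells, had 31 calls with 2 bait fragments, 25 of them made from these baits, where its mouse counterpart had 1. PAX4 had 6 calls, 2 of them with baited partners. The species, the bait sets and the depth differ between the lists as well as the cell type, and their parts cannot be told apart.

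PAX8 had 2 bait fragments, 1 of which is also listed as PAX8-AS1 and RP11-65I12.1, and these were called with each other at 42.8 kb with 15 reads and a score of 11.8. Its other named partners were PSD4, which had 21 reads and scores of 7.27 and 6.58 with the nearer bait, IL1RN, the gene of the interleukin-1 receptor antagonist, with 12 and 7 reads, and RNU6-1180P, with 11 reads at 196 kb and the highest PAX8 score, 12.37. All 12 calls lay within 196 kb. PAX6, whose bait is also listed as RCN1, had 8 calls at 249 to 609 kb on 1 side with 6 to 15 reads. The 2 with named partners, AC108456.1 at 380 kb and AL162614.1 at 609 kb, had the highest scores, 12.77 and 9.45. PAX1 had calls to 2 unbaited fragments, at 531 and 580 kb, with 11 reads each.

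In the GM12878 list, 9 of 22 calls had a baited partner (40.9%, 20.7 to 63.6), beside 29.4% of all GM12878 calls, and from PAX baits alone 5 of 18 did (27.8%, 9.69 to 53.5). None of the 22 spanned over 1 Mb, which allows a share of up to 13.6% when 3 counts are taken as the limit of a count of 0 (exact upper bound 15.4%), beside 1.64% of all GM12878 calls. Pax6 was the only member with named partners in both lists, 6 in mESCs and 2 in GM12878, and none of these symbols was shared. Only 2 of the 6 mESC symbols occurred anywhere in the GM12878 list, and both GM12878 partners have clone-based names. A shared symbol could therefore hardly be found, and its absence says little about the contacts.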

How the data were processed

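Promoter CHi-C was available for mESCs (2 replicates) and GM12878 (3 replicates), and Hi-C for mESCs (1 library). The authors mapped read pairs to mm9 or hg19 with HiCUP and Bowtie 1.1.0, merged the replicates and called interactions with CHiCAGO. The deposited read values are means over replicates weighted by size factors and rounded, and the deposited score is the CHiCAGO score, of at least 5 in the list. A pair of baits called from both ends stands as 2 calls. For Hi-C, the authors deposited HOMER 4.7 lists with the observed count of read pairs, the expected coverage signal for each bin pair, and FDR values, which are adjusted p-values.

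Calls were read line pair by line pair, symbols were split at semicolons, commas and bars, and transcript suffixes were removed. Pax6os1 and PAX8-AS1 are separate genes and were not counted as members. A call lay within a bin pair when both fragment midpoints did. Intervals are exact (Clopper-Pearson, scipy 1.17.1), at 95%. They cover counting error only, and calls of 1 bait are not independent. Transcript starts, exons and introns came from the GENCODE annotations of mm9 and hg19. The functions were tested on made-up input. Every bait fragment started at a HindIII cut in mm9 (100% of 16265).

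The genes and the lists of developmental factors, ligands and retinal genes were chosen with earlier results of these data known. The text names the 7 genes, Pax4 and Pax5 by counts, the genes that share a call with a member (some results are not reported here), the highest-scoring and the longest call of each, and the 3 most similar baits. Where a gene near a partner fragment is named from the annotation and not from the list, it was chosen after its values were seen. Alternatives were a score or read minimum of 10, each pair once, bait ends only, the browser list, distances between edges and other FDR limits.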

Additional observations from a re-analysis of the deposited data

How the results depend on the processing

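No paired analysis was possible because the calls were made on merged replicates and the lists have no column for a single replicate. For the same reason no replicate could be left out. At a score of at least 10, the mESC Pax calls fell to 131 and the GM12878 PAX calls to 3. The share within 25-kb Hi-C bin pairs became 83.0% (28.5% over all calls). The share with a baited partner became 51.1% (47.7% over all calls) and the share to a listed developmental factor 16.8% (4.26% over all calls). Both of these Pax shares include calls made from the partner's side, while the values over all calls read the other end only. They are therefore not alike, and bait-end Pax shares at this score were not computed. With each fragment pair counted once, the shares with a baited partner and with a listed factor were 29.9% and 7.11%. With the member at the bait end only they were 24.2% and 7.14%, since calls from the partner's side are then left out. By annotated starts the share to a listed factor was 19.2%, which includes fragments with starts of the member's own gene. With every listed bin pair the Hi-C share was 69.4%. The median distance ran from 337 kb (at least 10 reads) to 505 kb (score of at least 10), above the 90 and 110 kb of all calls under the same settings, and was 416 kb without Pax3. The browser list gave 197 Pax calls. Calls over 10 Mb and in trans rest on 3 to 7 reads each, and how their number varies with depth was not tested.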
